A study of Mus musculus with 12 samples.

Results

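Livers of mice with an induced Fra-1 transgene were compared with livers of their littermates across all genes. The comparison was taken from the sample titles: 3 mutants and 3 controls of the strain Fra1hep, 6 of the 12 liver libraries in the series. The remaining 6 come from the corresponding Fra-2 strain, Fra2hep, again 3 mutants and 3 controls, with doxycycline removed at 3 weeks of age. Titles of all Fra2hep samples give 2 months and so does the treatment field of their controls, but that field gives 9 months for the Fra2hep mutants. All mice were adult C57BL/6 males. In the Fra1hep mutants the transgene was switched on by taking doxycycline away at weaning, at 3 weeks of age, and liver was collected 2 months later. The Fra1hep controls were littermates from the same cages whose doxycycline was also withdrawn. Nothing in the sources used here gives the promoter that drives the transgene, the alleles of the controls or the cells in which the transgene is active. Polyadenylated RNA of whole liver, labelled as mostly hepatocytes, was sequenced, and reads were counted per gene. Each library is 1 mouse, and the p-values below measure the spread between mice of a group, pooled over the groups of both strains.

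Fra-1, the product of Fosl1, is a Fos-family subunit of AP-1. AP-1 factors are dimers of a Fos-family or related protein with a Jun-family protein, and they bind a short palindromic DNA element found near many genes that respond to growth factors and stress. Fra-1 lacks the activation domain found in c-Fos, is a target of the ERK kinase pathway, and is known from epithelial cells for its links to adhesion, migration and invasion. In healthy liver it is hardly expressed.

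The 6 libraries held between 16834041 and 20464807 counts. Of 55421 genes in the table, 14076 passed a filter on low counts and were tested with edgeR's quasi-likelihood test on all 12 libraries. Calls required a p under 0.05 after Benjamini-Hochberg adjustment. Values per library are CPM, the usual depth-scaled counts, with library totals adjusted by the trimmed mean of M-values (TMM). Albumin took 3.69% to 8.32% of the counts in the 6 libraries, and all 16 hepatocyte markers were detected. Mutant 2 stood apart from mutants 1 and 3: its distances from them were the larger ones within the group, which ran from 1.57 to 2.34 (root mean square log2 difference over the 500 most variable genes), against 1.39 to 1.54 among controls. Counts of the main lists are therefore also given without mutant 2.

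In coordinates of GRCm38, Fosl1 (chromosome 19, 5447547 to 5455946, plus strand) had 0, 0 and 1 counts in controls 1 to 3 and 172, 193 and 252 in mutants 1 to 3. In CPM the mutants stood at 9.41, 10.2 and 12.8. All 3 mutants were far above all 3 controls, and they lay within a 1.36-fold range. The ratio of summed counts, corrected for depth, was 588 (95% interval from counting error 105 to 23249). The fitted log2 fold change, which depends on the prior count for so sparse a control, was 8.74 ± 0.90 (SE) with an adjusted p of 3.18e-04 by edgeR, and it was called in every alternative and with each Fra1hep library left out. Counts per gene do not separate the transgene from the resident gene, and Ccdc85b lies on the other strand of the same locus, and the strand setting of the counting is not given.

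The other AP-1 subunits that passed the filter were not called. Jun, the best known partner, was uneven, with 43.5, 8.99 and 216 CPM in controls and 95.9, 40.6 and 26.7 in mutants, and the groups overlapped. Junb had 19.8, 30.3 and 30.3 CPM in controls and 38.2, 30.97 and 24.1 in mutants, and Jund 82.6, 67.6 and 86.6 and 76.8, 70.6 and 75.01. Both Jun-family genes also overlapped between groups (adjusted p = 0.803 and 0.825). Fos, the founding member of the Fos family, stayed between 0.588 and 2.69 CPM in all 6 libraries, and Fosb was below the filter with 1 to 7 counts. Fosl2, the gene of Fra-2, had 8.69, 8.65 and 10.1 CPM in controls and 7.49, 11.4 and 10.01 in mutants, with overlapping groups and an adjusted p of 0.953. Among 19 tested Maf, ATF and BATF genes, whose proteins can pair with AP-1 subunits, only Mafk was called: its level was 17.2, 14 and 12.1 CPM in controls and 53.4, 47.3 and 45.8 in mutants. Every mutant was above every control for this small Maf protein, which lacks an activation domain of its own (log2 fold change 1.76 ± 0.21, adjusted p = 6.57e-04). The median of the 19 genes was -0.07, and it changed sign without a scaling factor.

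Across all genes tested, 408 (2.90%) were called higher and 132 (0.938%) lower, 3.84% together. More genes were called higher than lower: 75.6% of the called genes, or 86.9% when libraries were scaled by their totals alone. That scaling shifted the median log2 fold change of all genes from 0.01 to 0.15. In all 540 called genes mutants and controls did not overlap, a separation shown by 21.7% of all genes tested. Among called genes, 287 rose more than 2-fold and 67 more than 8-fold, and 92 and 16 fell by as much. The genes called higher were of low to middling abundance, with a median control level of 9.33 CPM, and 70 of them averaged under 1 CPM in controls. Genes called lower were more abundant in control liver, with a median of 58.4 CPM. Control level is itself a part of the change by which genes were called, so this contrast is not separate from the calls. Together the risers took 10662, 10987 and 11221 CPM in the controls and 24280, 24244 and 23542 CPM in the mutants. The fallers took 38388, 31989 and 28770 CPM in controls and 12800, 11496 and 13687 CPM in mutants. Mutant 2 held the highest mutant value for 188 of the 408 risers and the lowest for 69 of the 132 fallers. Without mutant 2 the counts were 334 higher and 90 lower. The counts moved by more than 1.5 times without control 1 (215 higher, 52 lower), control 2 (257 and 60) or control 3 (267 and 82), and the lower count also without mutant 1 (70). Fits with a library left out are, for single genes and lists below, the 6 without 1 Fra1hep library each.

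**Figure D1:**
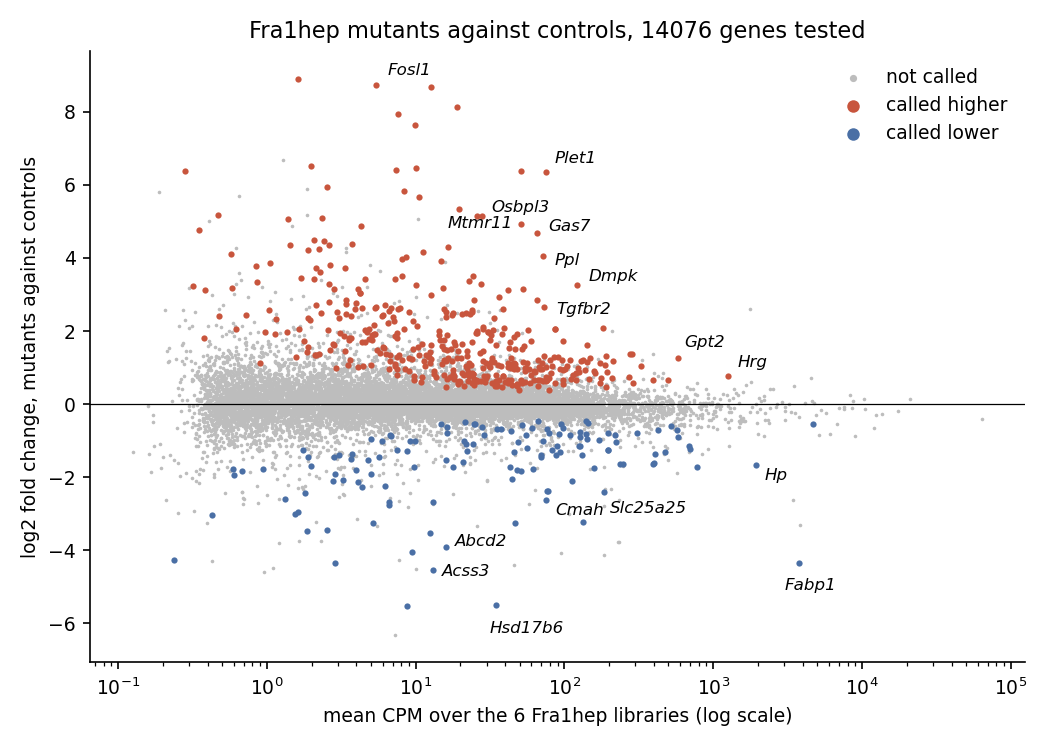
Each point is 1 of the 14076 genes tested, placed by its mean CPM over the 6 Fra1hep libraries (log scale) and its log2 fold change in mutants against controls. The 408 genes called higher (red) lie mostly at low to middling abundance, and the 132 called lower (blue) include abundant liver transcripts such as Fabp1 and Hp. Grey points were not called.

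Promoter sequences bear on a comparison that induces a DNA-binding protein, so windows from 250 bases before to 50 bases after RefSeq transcript starts (GRCm38.p6) were searched for the AP-1 element TGACTCA or its reverse complement TGAGTCA. A window was given for 310 of the 408 genes called higher, and 23 of these (7.42%) held the element. The share was 5.88% (6 of 102) among genes called lower and 4.86% (518 of 10660) among all genes tested. Per window the shares were 5.74%, 4.44% and 4.03%, against 5.20% of all 32851 windows in the table. The related element TGACGTCA was in 3 of the 310 (0.968%), 3 of the 102 (2.94%) and 361 of the 10660 (3.39%). Of the 30 largest rises in protein-coding genes, 17 had a window, and only Ypel4 held the AP-1 element. A match describes the letters of a window and is not a bound site. The 250 bases before the start are printed for Ypel4 (chr2:84733954-84734203, plus strand) and, chosen after their values were seen, for the 3 named risers with the smallest p that held the element: Entpd2 (chr2:25395624-25395873, plus strand), Srxn1 (chr2:152105274-152105523, plus strand) and Anxa2 (chr9:69453433-69453682, plus strand). Capitals mark the AP-1 element, which begins 154, 99 and 95 bases before the start in Ypel4, Entpd2 and Anxa2. Srxn1 holds 2 copies, the nearer 45 bases before the start.
Ypel4: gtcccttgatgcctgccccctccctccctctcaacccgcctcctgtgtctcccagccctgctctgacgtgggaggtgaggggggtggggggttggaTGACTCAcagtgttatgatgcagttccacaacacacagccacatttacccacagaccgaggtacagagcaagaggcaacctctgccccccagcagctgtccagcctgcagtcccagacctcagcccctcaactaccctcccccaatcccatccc
Entpd2: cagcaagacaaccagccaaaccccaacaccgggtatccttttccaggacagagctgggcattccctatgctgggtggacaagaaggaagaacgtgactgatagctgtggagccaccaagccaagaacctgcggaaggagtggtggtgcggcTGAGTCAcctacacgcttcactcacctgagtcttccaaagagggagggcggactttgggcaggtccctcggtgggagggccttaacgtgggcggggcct
Srxn1: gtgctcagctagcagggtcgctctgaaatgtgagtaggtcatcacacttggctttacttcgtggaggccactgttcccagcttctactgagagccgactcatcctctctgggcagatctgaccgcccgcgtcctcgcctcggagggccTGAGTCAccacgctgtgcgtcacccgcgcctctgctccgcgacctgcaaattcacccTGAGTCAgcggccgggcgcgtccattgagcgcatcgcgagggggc
Anxa2: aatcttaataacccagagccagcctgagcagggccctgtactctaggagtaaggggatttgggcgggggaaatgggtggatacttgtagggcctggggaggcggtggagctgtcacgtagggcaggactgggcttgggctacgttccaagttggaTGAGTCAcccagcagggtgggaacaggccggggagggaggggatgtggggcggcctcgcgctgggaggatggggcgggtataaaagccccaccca
Levels of these 4 genes rose in all 3 mutants. Entpd2, an ectonucleotidase that splits extracellular ATP, had 2.94, 2.41 and 3.23 CPM in controls and 23.96, 23.8 and 20.01 in mutants (log2 fold change 2.98 ± 0.22, adjusted p = 3.69e-05). Srxn1, the sulfiredoxin that restores oxidised peroxiredoxins, went from 30.2, 33.3 and 38.4 CPM to 154, 125 and 142 (2.04 ± 0.17, adjusted p = 6.57e-05). Annexin A2 is described with its partners below. Ypel4, a small zinc-binding protein, was sparse: it had 7, 1 and 1 counts in controls and 42, 105 and 81 in mutants. Its call (adjusted p = 0.0352) held in 1 of the 6 fits with a library left out, the highest adjusted p being 0.135 without control 2.

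Risers with high levels in the mutants included several surface and membrane-associated proteins. Plet1 (chromosome 9, 50494525 to 50505482, plus strand), which encodes a surface protein held by a lipid anchor and known from placenta and skin, had 2.22, 1.92 and 1.35 CPM in controls and 136, 117 and 191 in mutants. The lowest mutant was 52.6 times the highest control (log2 fold change 6.34 ± 0.52, adjusted p = 9.46e-05). Osbpl3 (chromosome 6, 50293330 to 50456201, minus strand), an oxysterol-binding-protein relative that moves lipids between membranes, had 1.24, 2.11 and 1.18 CPM in controls and 59.4, 63.7 and 40.99 in mutants (5.15 ± 0.64, adjusted p = 0.001198). Mtmr11 (chromosome 3, 96162004 to 96171718, plus strand), of the myotubularin family of lipid phosphatases, went from 3.13, 3.24 and 3.39 to 94.3, 117 and 84.8 CPM (4.92 ± 0.38, adjusted p = 5.01e-05). The lowest mutant was 19.4 times the highest control for Osbpl3 and 25 times for Mtmr11. Gas7 (chromosome 11, 67455437 to 67688990, plus strand), an F-BAR protein that binds actin and curved membrane, had the smallest p of all genes: it had 4.38, 5.16 and 5.06 CPM in controls and 117, 117 and 143 in mutants (4.68 ± 0.20, adjusted p = 5.44e-07). Gm12301 and Glp2r overlap Gas7 on the other strand, so their reads may be mixed. Dmpk, the kinase whose gene carries the repeat of myotonic dystrophy, was 15.5, 25.8 and 27.8 CPM in controls and 172, 335 and 155 in mutants, with mutant 2 the highest (3.26 ± 0.36, adjusted p = 5.29e-04). Slc25a24, a mitochondrial carrier of ATP-Mg and phosphate, rose from 0.784, 1.67 and 1.02 to 24.1, 27.97 and 11.9 CPM, with mutant 3 the lowest of the mutants (4.17 ± 0.46, adjusted p = 5.22e-04).

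The largest fold changes were in genes close to undetected in control liver. Lrtm2, which encodes a membrane protein with leucine-rich repeats, had 1, 1 and 1 counts in controls and 282, 811 and 356 in mutants (adjusted p = 2.31e-04), a ratio of 460.1 (95% interval from counting error 157 to 2233), and it lies opposite Cacna2d4. Inava, an adaptor known from intestinal epithelium, had 1, 2 and 2 and 155, 814 and 153 counts (7.64 ± 0.86). Hkdc1, a hexokinase-related protein, had 2, 7 and 3 and 249, 568 and 310 (6.45 ± 0.48, adjusted p = 3.69e-05). All 3 were called with each library left out. Meltf, melanotransferrin, an iron-binding surface protein, had 0, 1 and 1 and 82, 80 and 61 counts, a ratio of 106 (95% interval from counting error 29.1 to 882). Tcam1 had 0, 0 and 0 and 72, 88 and 24 counts and was at least 58.4-fold higher against a floor of 3 counts over the control group. Tcam1 was called in 4 of the 6 fits with a library left out (highest adjusted p 0.0525 without control 1). Fra2hep controls had 12, 0 and 1 counts of it. Fam110c, a microtubule-associated protein, had 3, 5 and 3 counts in controls and 81, 88 and 96 in mutants (4.48 ± 0.39, adjusted p = 9.46e-05). Usp43, a deubiquitinase, had 1, 2 and 4 and 88, 91 and 81 counts (5.08 ± 0.60, adjusted p = 6.83e-04). Their mutants lay within a 1.1-fold and a 1.17-fold range. Syt14, of the synaptotagmin family, had 2, 1 and 1 counts in controls against 67, 133 and 84 (5.94 ± 0.46, adjusted p = 4.12e-05). Nup62cl, similar to a nuclear pore protein, had 7, 6 and 2 against 54, 303 and 120 counts, and its mutants spread over a 5.402-fold range in CPM. Arhgap22, a GTPase-activating protein, had 2, 6 and 5 against 77, 129 and 79 counts (4.36 ± 0.55, adjusted p = 0.00101). Rhpn1, a scaffold protein, had 3 counts over the controls and 62 over the mutants, a ratio of 19.7 (95% interval from counting error 6.43 to 98.05). Gipc2, a PDZ-domain adaptor, was uneven among the mutants with 463, 80 and 385 counts against 8, 3 and 4 in controls. It was called in 3 of the 6 fits with a library left out, and the highest adjusted p was 0.08003 without control 2. Fndc10 (3, 3 and 6 against 128, 39 and 75 counts) was called in 2 of those 6 fits, and Rhpn1 in 1.

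**Figure D2:**
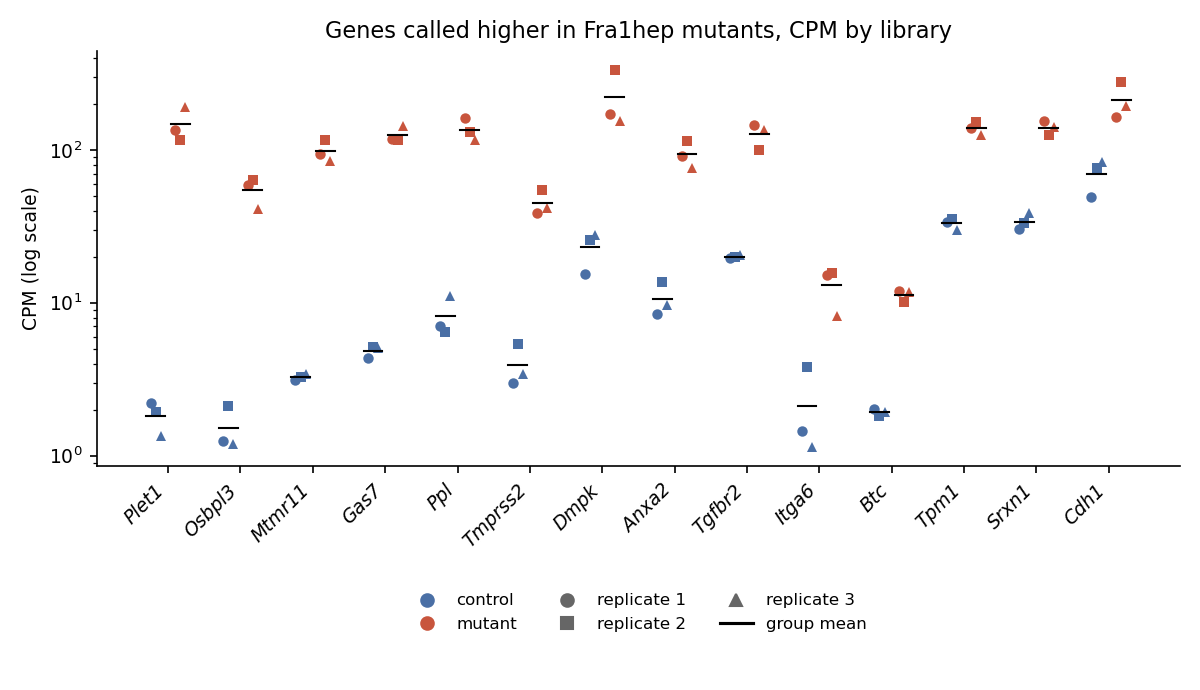
CPM on a log scale in each Fra1hep library for 14 genes called higher. Blue points are controls and red points mutants, the symbol gives the replicate number and the bar the group mean. No mutant overlaps a control in any of the 14 genes. Mutant 2 is the highest for Osbpl3, Mtmr11, Tmprss2, Dmpk, Anxa2, Itga6, Tpm1 and Cdh1.

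Some genes of epithelial junctions rose, and none of the listed ones was called lower. Counts in this and the following lists stand against 2.90% called higher and 0.938% called lower of all genes tested. At a share of 0.938%, 0 fallers in a list of this size says little about its members. Of 31 tested genes of tight junctions, adherens junctions and desmosomes 5 rose, and their median log2 fold change was 0.35 against 0.01 for all genes tested. F11r, the junctional adhesion molecule JAM-A, had 88.7, 83.9 and 88.6 CPM in controls and 199.7, 239 and 189 in mutants (1.27 ± 0.18, adjusted p = 0.002001). Cdh1, the E-cadherin of adherens junctions, had 49.3, 76.1 and 83.2 CPM in controls and 163, 279 and 195 in mutants (1.61 ± 0.35, adjusted p = 0.0256). Control 1 was lowest and mutant 2 highest for Cdh1, and the nearest mutant and control differed 1.96-fold. Its cytoplasmic partner Ctnna1, alpha-catenin, rose by 0.89 on the log2 scale and plakoglobin, Jup, by 0.75. Without mutant 2 only 2 of the 31 were called. Of the 5, F11r was called in all 6 fits with a library left out, whereas the highest adjusted p in those fits was 0.121 for Cdh1 and 0.117 for Jup.

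Of 15 tested genes known from stratified and surface epithelia, 4 rose, 0 fell and the median was 0.71. Ppl, periplakin, which ties keratin filaments to desmosomes and the cell envelope, had 7.05, 6.44 and 11.03 CPM in controls and 162, 131 and 115 in mutants. The lowest mutant was 10.5 times the highest control (4.05 ± 0.24, adjusted p = 8.16e-06). Perp, a desmosome protein and p53 target, rose from 98.7, 82.6 and 98.5 to 160.3, 129 and 153 CPM, the keratin Krt23 from 0.849, 1.13 and 1.61 to 6.35, 5.95 and 10.4, and the surface protein Ly6d from 1.698, 0.442 and 2.15 to 73.6, 45.2 and 31.9. The last was called in 2 of 6 fits with a library left out (highest adjusted p 0.122 without control 1) and Krt23 in 3. The keratins of hepatocytes moved by less: Krt18 went from 244, 180.3 and 191 to 342, 345 and 333 CPM (0.73 ± 0.16) and Krt8 from 106, 86.6 and 88.4 to 203, 141 and 194 (0.94 ± 0.19), both called. Of the 31 genes listed, 16 were below the filter. Among these Krt5 had 1 count and Krt14 2 counts over the 6 libraries, and Trp63 was at 0 in all 3 mutants. Sprr1a had 0, 1 and 0 counts in controls and 17, 16 and 7 in mutants, Krt4 had 2, 1 and 0 against 8, 7 and 5, and Krt20 had 0, 0 and 0 against 1, 30 and 0.

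Genes of the brush border, the microvillus-covered face of absorptive epithelia that also lines bile canaliculi, gave 5 risers of 20 tested and 0 fallers, with a median of 0.68. Cdhr5, a cadherin that links microvilli, had 85.6, 73.1 and 91.1 CPM in controls and 136, 180.1 and 177 in mutants (0.98 ± 0.13, adjusted p = 0.00113). The groups did not overlap, and the nearest mutant and control differed 1.498-fold. Its binding partner Cdhr2 was at 1 count in each control, and mutants 1 to 3 had 60, 581 and 234, a 9.32-fold range in CPM and a ratio to the controls of 278 (95% interval from counting error 94.7 to 1349.7). Vill, villin-like, rose from 1.18, 1.62 and 2.15 to 11, 12.3 and 9.19 CPM, Myo1e, an unconventional myosin, from 66.7, 55.1 and 57.1 to 77.95, 112 and 90.9, and Fscn1, the actin bundler fascin, from 2.68, 2.898 and 2.53 to 6.07, 6.95 and 3.56. Without mutant 2, 3 of the 20 were called. Biliary cells also carry such surfaces, and their part in these values was not tested. Of 11 tested cholangiocyte markers 0 were called, at a median of 0.28, and their summed level was 189 to 258 CPM in controls and 507, 181 and 334 CPM in mutants 1 to 3. Spp1, whose uneven levels are given with the macrophage markers below, is in this list too and is the largest term of the sum in mutant 1.

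Annexins, S100 proteins and their partners, which bind membranes in response to calcium, had 5 risers of 21 tested, 0 fallers and a median of 0.69. Anxa2 had 8.42, 13.6 and 9.63 CPM in controls and 91.6, 115 and 76.4 in mutants, and S100a10, the subunit with which annexin A2 forms a complex at the plasma membrane, had 89.2, 49.2 and 71.2 and 282, 246 and 355. The nearest mutant and control differed 5.61-fold for Anxa2 and 2.76-fold for S100a10 (3.15 ± 0.37 and 2.08 ± 0.26, adjusted p = 7.46e-04 and 0.00101). Ahnak, a large scaffold that binds this complex, rose from 16.98, 21.4 and 19.2 to 47.5, 39.1 and 50.5 CPM (1.25 ± 0.16). Anxa7 rose by 0.90 and Anxa5 by 1.32 on the log2 scale, and Anxa5 was called in none of the 6 fits with a library left out. The summed level of the list was 714 to 766 CPM in controls and 1288 to 1512 in mutants. That sum includes the 5 risers, so it is not separate from their calls.

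Among cytoskeleton genes 7 of 39 tested rose and 0 fell, with a median of 0.28. Tpm1, a tropomyosin that winds along actin filaments, had 33.96, 35.4 and 30.1 CPM in controls and 140, 152 and 125 in mutants, and the nearest mutant and control differed 3.53-fold (2.07 ± 0.12, adjusted p = 8.16e-06). Tagln2, transgelin-2, which bundles actin, had 11.4, 14.4 and 12.8 and 60.4, 53.3 and 45 CPM (2.04 ± 0.24), and Tubb6, a beta-tubulin, 2.22, 4.62 and 4.41 and 16.5, 22.3 and 11.2 (2.14 ± 0.33). Smaller rises were in Cnn3, calponin-3 (0.87), Tpm4 (1.11), the non-muscle myosin Myh9 (1.07) and Cap1, which recycles actin monomers (0.65). Without mutant 2, 4 of the 39 were called.

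Integrins and their adaptors, the link from actin to matrix, gave 4 risers of 23 tested, 0 fallers and a median of 0.46. Itga6, a laminin receptor chain, had 1.44, 3.78 and 1.13 CPM in controls and 15.1, 15.7 and 8.18 in mutants (2.6 ± 0.43, adjusted p = 0.00546). Itgb5, a vitronectin receptor chain, had 66.3, 72.6 and 67.6 and 134, 129 and 136, and each group lay within a 1.095-fold range (0.95 ± 0.13, adjusted p = 0.00152). Its partner Itgav rose by 0.82 and the adaptor Lims1, PINCH-1, by 0.75 on the log2 scale. The sum of the 23 genes was 776 to 887 CPM in controls and 1045 to 1099.8 in mutants.

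Among ligands and receptors of growth factor signalling, 2 of 11 tested ERBB genes rose. Btc, betacellulin, an EGF receptor ligand, had 2.02, 1.82 and 1.94 CPM in controls and 11.9, 10.1 and 11.7 in mutants (2.54 ± 0.28, adjusted p = 4.40e-04). Tgfa, another ligand of that receptor, had 22.8, 25.2 and 25.2 and 48.7, 50.9 and 51.1 CPM (1.04 ± 0.16, adjusted p = 0.00428). For both ligands no mutant overlapped a control, and the nearest differed 4.97-fold and 1.93-fold. Nrg1, a neuregulin, named after its values were seen, was below 1 CPM in each control and at 7.17, 2.37 and 4.82 in mutants (3.28 ± 0.66, adjusted p = 0.0186). Areg and Epgn, ligands of the same family, had 2 and 0 counts over the 6 libraries. Egfr itself was not called, with 797, 416 and 831 CPM in controls and 237, 518 and 136 in mutants and an adjusted p of 0.277. Of 17 tested targets of the ERK pathway below these receptors 2 rose, the feedback inhibitors Spred1 (0.70 ± 0.15) and Dusp4 (1.57 ± 0.36), and without mutant 2 neither was called. Clcf1, a cytokine of the interleukin-6 family also named after its values were seen, had 1.31, 2.26 and 1.88 CPM in controls and 32.2, 32.7 and 18.2 in mutants (3.91 ± 0.45, adjusted p = 7.14e-04).

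Tgfbr2, the TGF-beta type II receptor, was the called riser of 23 tested TGF-beta pathway genes: it had 19.6, 19.99 and 20.4 CPM in controls and 145, 99.8 and 134 in mutants. The controls differed by less than 1 CPM and the lowest mutant was 4.89 times the highest of them (2.66 ± 0.19, adjusted p = 2.79e-05). Inhbc, an activin subunit made by hepatocytes, fell from 49.04, 139.8 and 199 to 17.2, 37.4 and 19.5 CPM, with control 1 nearest to the mutants (-2.39 ± 0.58, adjusted p = 0.0464). The median of the 23 was 0.05. Of 31 cytokines, chemokines and TNF receptors 3 rose, all of them TNF-receptor family members. Tnfrsf1a, the main TNF receptor, had 88.4, 64.5 and 86.3 CPM in controls and 172, 174 and 194 in mutants (1.17 ± 0.14, adjusted p = 6.83e-04). Tnfrsf12a, the receptor for TWEAK, had 5.88, 5.94 and 8.72 and 37.3, 65.7 and 20.3 CPM, with a 3.24-fold range among the mutants (2.58 ± 0.40, adjusted p = 0.00393), and Tnfrsf21 rose by 1.29 on the log2 scale. Tnf and Il6 stayed below the filter. Of 21 tested YAP and TEAD targets only Crim1 was called, from 7.901, 10.7 and 15.1 to 36.5, 31.97 and 40.5 CPM, and of 19 p53 targets Perp and the polymerase Polk. The single risers of the TGF-beta and YAP lists (4.35% and 4.76% of members) are near the 2.90% called higher of all genes tested. Cdkn1a, a p53 target that stops the cell cycle, was not called: mutant 2 stood at 85.7 CPM and the other 5 libraries between 3.12 and 7.26.

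Membrane proteases and sphingolipid enzymes also held risers. Tmprss2, a transmembrane serine protease, had 3.004, 5.35 and 3.39 CPM in controls and 38.8, 54.5 and 41.5 in mutants (3.51 ± 0.29, adjusted p = 6.57e-05). St14, matriptase, which activates pro-HGF among other substrates, had 4, 12 and 6 counts in controls and 309, 200 and 690 in mutants, with mutant 3 the highest (5.67 ± 0.71, adjusted p = 0.00109). In the same list of 16 tested genes Hgfac, the plasma activator of HGF, fell from 428, 386 and 359 to 263, 178 and 238 CPM (-0.79 ± 0.17). The list's median, 0.04, is below 0 under 6 of the alternatives. Of 27 sphingolipid genes 3 rose. Sptlc2, a subunit of the enzyme that begins sphingolipid synthesis, had 11.6, 18.7 and 29.5 CPM in controls and 75.7, 84.2 and 68.3 in mutants (1.93 ± 0.29, adjusted p = 0.00315). Smpd3, a neutral sphingomyelinase, had 1.83, 0.835 and 2.099 and 47.6, 7.79 and 38.3, with mutant 2 far below the other mutants (4.31 ± 0.64, adjusted p = 0.00357), and overlaps Prmt7 on the other strand. The third was Smpdl3b, treated with the strain comparison.

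Risers among detoxification genes included antioxidant genes and glutathione S-transferases. Among 19 tested targets of NRF2, the antioxidant regulator, 3 rose and 0 fell, with a median of 0.25: Srxn1, given above, Abcc4, an efflux pump (1.11, 1.23 and 0.646 CPM in controls, 5.74, 6.06 and 3.66 in mutants), and Ephx1, an epoxide hydrolase (0.66 ± 0.15, adjusted p = 0.0311). Srxn1 and Abcc4 were called in 6 of the 6 fits with a library left out, and Ephx1 in 1 (highest adjusted p 0.1465 without control 1). Gsta2, a glutathione S-transferase, had 6.46, 6.68 and 5.06 CPM in controls and 40.9, 45.7 and 43.6 in mutants, and the nearest mutant and control differed 6.12-fold (2.84 ± 0.19, adjusted p = 1.61e-05). Its near-identical neighbour Gsta1 rose from 0.588, 0.197 and 0.646 to 2.95, 8.01 and 7.77 CPM, and reads may be shared between the 2 genes. Gstm5 and Gstm3 rose as well, making 4 of 22 tested, and Gstm3 was called in none of the 6 fits with a library left out. Ugdh, which makes the UDP-glucuronic acid used in conjugation, had 157, 147 and 169 CPM in controls and 375, 412 and 436 in mutants (1.37 ± 0.12, adjusted p = 1.01e-04). The 21 tested enzymes that use that donor or sulfate gave 0 calls, at a median of -0.42, and without mutant 2 the median was -0.11 with 1 riser. Of 33 drug-metabolising Cyp2 and Cyp3 genes only Cyp2c55 was called, a riser (9.99, 15.1 and 12.6 against 69.3, 33.5 and 44.5 CPM), while the median was -0.38. Without mutant 2 that median was -0.16, with 1 called higher and 2 lower. Summed levels of those 33 were 20287 and 17508 CPM in mutants 1 and 3 and 10515 CPM in mutant 2, against 17917 to 19753 in controls.

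The 5 largest gains in CPM were in Hrg, Gpt2, Ugdh, Lonp1 and Entpd5, all above 100 CPM in each control. Hrg, the plasma protein histidine-rich glycoprotein, had 1000.4, 851 and 943 CPM in controls and 1869.8, 1346 and 1581 in mutants (0.78 ± 0.14, adjusted p = 0.009797). Gpt2, the mitochondrial alanine aminotransferase, had 345, 331 and 345 and 958, 712 and 774 CPM (1.26 ± 0.22, adjusted p = 0.00768). Mutant 1 was the highest for both, and the groups did not overlap. Lonp1, a protease of the mitochondrial matrix, rose from 157, 155 and 147 to 317, 544 and 324 CPM with mutant 2 the highest (1.37 ± 0.21), and Entpd5, a nucleotidase of the endoplasmic reticulum, from 188, 241 and 217 to 494, 350.4 and 485 with mutant 2 the lowest (1.04 ± 0.16). Nrn1, neuritin, rose from 327, 309 and 288 to 521, 488 and 438 CPM (0.65 ± 0.12). Slc10a2, the bile acid importer of ileum and biliary cells, named after its values were seen, had 18.3, 13.3 and 16.4 CPM in controls and 113, 128 and 103 in mutants (2.84 ± 0.29, adjusted p = 3.20e-04). Amino acid genes included Asns, asparagine synthetase, a target of the integrated stress response, with 0.914, 0.835 and 1.08 CPM in controls and 9.24, 85.1 and 20.3 in mutants. Mutant 2 was far above mutants 1 and 3 for Asns, which was called in 3 of the 6 fits with a library left out (highest adjusted p 0.112 without control 1). Of 22 tested genes of that response 2 rose, Asns and Vldlr, with a median of 0.02.

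By count, genes of fatty acid oxidation held more fallers than any other list. By share, acute phase proteins held more (18.5%). The fatty acid oxidation list takes targets of PPAR-alpha, the nuclear receptor that drives hepatic fatty acid oxidation, together with genes of that pathway. Of its 43 tested members 7 fell (16.3%, against 0.938% of all genes tested). Of the same 43, 0 rose, 41 had a negative value and the median was -0.51. In whole liver, lower RNA per cell cannot be told apart from fewer cells of the type that makes it. Acss3, a mitochondrial propionyl-CoA synthetase, had 25.1, 25.6 and 24.7 CPM in controls and 1.42, 0.211 and 1.57 in mutants (-4.55 ± 0.60, adjusted p = 0.00166). The controls were within 1 CPM of each other, and the lowest control was 15.7 times the highest mutant. Abcd2, a peroxisomal importer of fatty acyl-CoA, had 27.4, 44.2 and 18.6 and 1.53, 2.95 and 1.47 CPM (-3.92 ± 0.54, adjusted p = 0.00206). Acsl1, the main long-chain acyl-CoA synthetase of liver, had 782, 961 and 1089 and 378, 352 and 551 (-1.14 ± 0.24, adjusted p = 0.0224). Fabp1, which carries fatty acids in hepatocytes, had 10008, 7157 and 4504 CPM in controls and 376, 11.95 and 686 in mutants. The mutants lay within a 57.4-fold range, mutant 2 being the lowest, and the call (adjusted p = 0.0466) held in 1 of the 6 fits with a library left out, the one without mutant 2 (adjusted p = 0.00456). Vnn3 (-1.45), Pex11a, which divides peroxisomes (-1.39), and the omega-hydroxylase Cyp4a10 (-3.24) were the other 3, each called in at most 1 of those 6 fits. Without mutant 2, 3 of the 43 were called. Ppara itself was not called (20.6, 28.5 and 22.1 CPM in controls, 16.6, 19.4 and 15.03 in mutants, adjusted p = 0.446), nor was Cpt1a (log2 value -0.32).

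Other lipid lists had fewer calls. Of 28 apolipoprotein and lipoprotein genes 2 fell: Apoc4, from 832, 596 and 596 to 269, 261 and 289 CPM (-1.31 ± 0.20, adjusted p = 0.00312), and the phospholipid transfer protein Pltp (-1.25). Apoc4 was called in 6 of the 6 fits with a library left out and Pltp in 0. Dhcr7, the last step of cholesterol synthesis, was the 1 faller of 24 (177, 167 and 150.1 CPM in controls, 86.05, 73.4 and 104 in mutants, -0.91 ± 0.17). The 23 genes of fatty acid and triglyceride synthesis had 0 calls and a median of -0.40, and without mutant 2, 2 of them were called lower. In the lipid droplet list Plin3 and Vldlr rose and Fabp5 fell, of 23 tested. Plin3 was called in 0, Vldlr in 2 and Fabp5 in 2 of the 6 fits with a library left out, and without mutant 2 the list had 0 risers and 2 fallers.

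Among 27 steroid enzymes 4 fell and 2 rose. Hsd17b6, a dehydrogenase of androgens and retinol, had 56.2, 75.8 and 72.97 CPM in controls and 0.602, 1.79 and 2.08 in mutants (-5.50 ± 0.66, adjusted p = 9.59e-04). Hsd11b1, which activates glucocorticoids, had 665, 597 and 607 and 423, 358 and 457 (-0.59 ± 0.14), and Akr1c20 and the 5-alpha-reductase Srd5a1 fell by 0.79 and 0.67 on the log2 scale. The other 5-alpha-reductase, Srd5a2, moved the opposite way, from 0.784, 1.62 and 3.23 to 9.35, 7.004 and 7.36 CPM (2.06 ± 0.42), as did Cyp21a1, an enzyme of corticoid synthesis, from 0.392, 0.0491 and 0.592 to 5.58, 5.74 and 10.2. Without mutant 2 the list had 2 fallers and 2 risers, and leaving out 1 library could reduce these counts to 1 and 0. Hsd17b6 was called in 6 of the 6 fits with a library left out, Akr1c20 in 4, Hsd11b1 in 1, Srd5a1 in 1, Srd5a2 in 3 and Cyp21a1 in 4. Carboxylesterases of the same cluster also went in opposite directions: Ces1e fell from 276, 277 and 167 to 24.8, 12.2 and 40.02 CPM (-3.22 ± 0.37, adjusted p = 6.51e-04), and Ces1g rose from 142, 137 and 107 to 381, 184 and 313 (1.18 ± 0.27, adjusted p = 0.0312). Ces1g was called in 1 of those 6 fits and Ces1e in 6. These genes are close copies, and how the counting treated reads that match both is not given. In bile acid handling, of 27 tested genes, Abcb11, the bile salt export pump, fell from 636, 706 and 804 to 401, 460.3 and 444 CPM and Fgfr4, the hepatic receptor for the gut hormone that limits bile acid synthesis, from 70.1, 62.3 and 64.5 to 30.4, 39.02 and 26.3 (-1.04 ± 0.14, adjusted p = 0.00171). Abcc4 and Abcb1a, both efflux pumps, rose. Cyp7a1, the rate-limiting enzyme, was not called and overlapped between groups (138, 119 and 78.5 and 206, 60.1 and 55.8 CPM). G6pc, which releases glucose from the liver, fell from 804, 459 and 524 to 255, 136 and 181 CPM, 1 of 16 gluconeogenesis genes (-1.64 ± 0.35). It was called in 2 of the 6 fits with a library left out, and without mutant 2 the list had 0 fallers.

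Plasma proteins of the acute phase gave 5 fallers of 27 tested, 0 risers and a median of -0.57. Hp, haptoglobin, which binds free haemoglobin, had 3438, 2583 and 2815 CPM in controls and 687, 1031 and 1065 in mutants (-1.67 ± 0.29, adjusted p = 0.00718). The lowest control was 2.42 times the highest mutant. Serpina3n had 469, 254 and 344 and 115, 60.04 and 171 CPM (-1.63 ± 0.39), and Lbp, the lipopolysaccharide-binding protein, 144, 106 and 129.8 and 34.7, 39.2 and 71.97 (-1.38 ± 0.33). Saa3 and Lcn2, both low in control liver, fell by 2.14 and 3.26 on the log2 scale. Saa1, Saa2 and Orm1 were not called (-1.48, -1.53 and -0.57). Without mutant 2, 2 of the 27 were called, and of the 5, Hp alone was called in all 6 fits with a library left out. Of 39 coagulation and complement genes F10 (-0.70 ± 0.16) and F7 (-0.53 ± 0.13) fell, and neither was called without mutant 2. That list's median, -0.12, turns positive with no scaling factor.

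**Figure D3:**
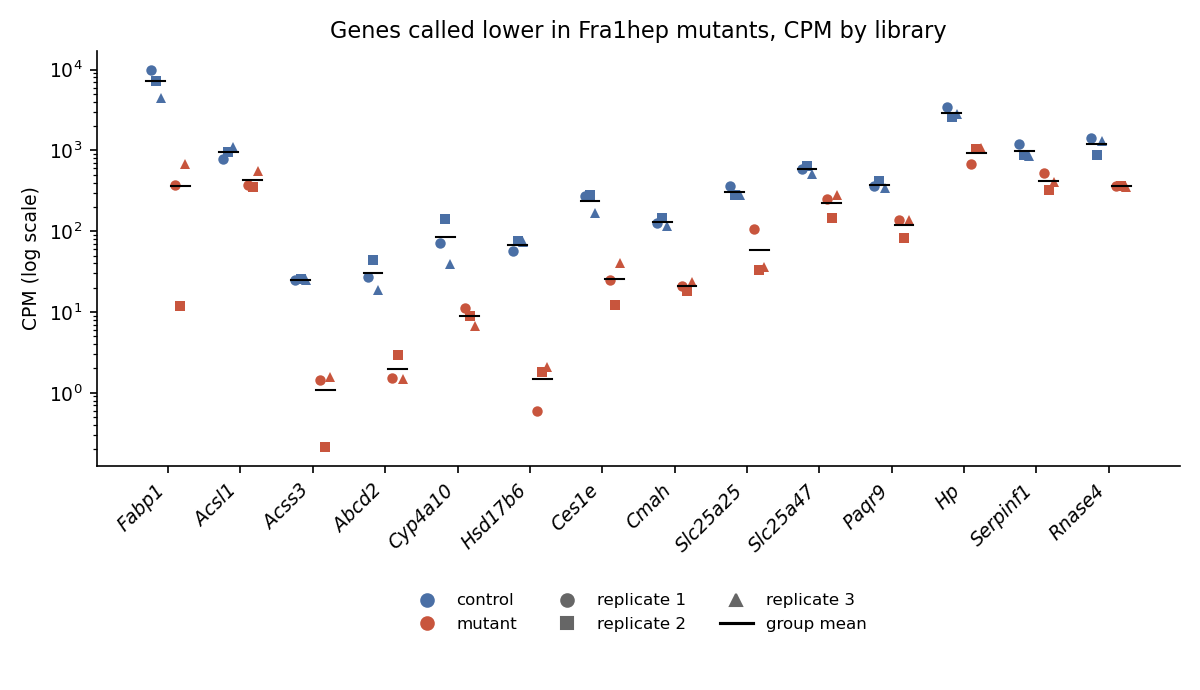
CPM on a log scale in each Fra1hep library for 14 genes called lower, with blue controls, red mutants, the symbol giving the replicate number and the bar the group mean. The mutants lie below the controls in each gene, and mutant 2 is by far the lowest for Fabp1.

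Single genes outside these lists fell as well. Cmah (chromosome 13, 24327404 to 24477377, plus strand), whose enzyme makes the N-glycolyl form of sialic acid, had 126, 147 and 118 CPM in controls and 21.1, 18.3 and 23.7 in mutants, and the lowest control was 4.97 times the highest mutant (-2.63 ± 0.26, adjusted p = 2.58e-04). Paqr9, a membrane receptor of the progestin and adipoQ family, had 367, 416 and 339 and 138, 82.9 and 139 CPM (-1.64 ± 0.28, adjusted p = 0.00718). Serpinf1, the secreted protein PEDF, had 1199, 871 and 848 and 522, 322 and 413 (-1.22 ± 0.21, adjusted p = 0.00827). These 3 genes were called with each library left out, and none of their mutants reached the lowest control. Slc25a25, a mitochondrial carrier of the same ATP-Mg type as the riser Slc25a24, had 367, 282 and 279 CPM in controls and 105, 32.8 and 35.9 in mutants, and Slc25a47, a carrier of liver, 592, 640.2 and 518 and 252, 145 and 279. Each was called in 1 of the 6 fits with a library left out, with highest adjusted p of 0.0803 and 0.1004.

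The receptor Lifr, which binds leukaemia inhibitory factor, fell from 797, 458 and 559.8 to 131, 177 and 286 CPM (-1.61 ± 0.39, adjusted p = 0.0464), and Adrb3, the beta-3 adrenergic receptor, from 15.2, 31.8 and 20.6 to 3.501, 2.16 and 4.93 (-2.67 ± 0.57). Scara5, a ferritin receptor, went from 17.2, 4.03 and 13.3 to 1.53, 1.63 and 2.23 CPM and the potassium channel Kcnk10 from 3.79, 1.87 and 3.44 to 0.219, 0.579 and 0.863. Aqp4, a water channel, stood at 5.42, 4.08 and 4.41 CPM in controls and 0.438, 0.369 and 0.457 in mutants (-3.44 ± 0.83). Its groups were tight, yet it was called in none of the 6 fits with a library left out. Secreted or transport genes with falls included Rnase4, a ribonuclease of plasma (1430.4, 874 and 1306 against 367, 366 and 357 CPM, sharing its locus with Ang), Selenop, the selenium carrier of plasma (5908, 5721 and 5076 against 3945, 3677 and 3750.1), the transporter Abca8a (107, 187 and 98.1 against 13.9, 45.03 and 17.01) and Slc22a28, an organic anion transporter with close relatives (6.66, 27.02 and 18.03 against 0.438, 0.421 and 0.254). Selenop was likewise called in none of those 6 fits, and Lifr, Rnase4 and Scara5 in 1 each. Abca8a and Adrb3 were called in 2 each, Kcnk10 in 5 and Slc22a28 in 6.

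Among noncoding transcripts, 6 lncRNAs rose and 10 fell of 858 tested (1.86% together, against 4.01% of 12782 protein-coding genes). Gm36264 fell from 5.88, 7.12 and 3.44 to 0.109, 0.421 and 0.254 CPM (-4.35 ± 0.52, adjusted p = 7.14e-04), the transcribed pseudogene Gm4956 from 11.8, 16.9 and 40.2 to 1.64, 1.53 and 2.84 and Gm15998, which lies opposite Efna3, from 20.4, 18.6 and 14.2 to 0.274, 1.001 and 1.93. The processed pseudogene Gm5340 (0.131, 0.0491 and 0.0538 against 2.24, 2.42 and 3.45 CPM) and the lncRNA Gm19705 (0.784, 0.835 and 0.861 against 5.91, 8.06 and 8.18) rose. Reads of named genes may also be mixed with those of overlapping genes for Plet1 (Plet1os), Mtmr11 (Gm17690), Cmah (Gm11342), Dop1b (2310043M15Rik), Slc25a25 (Naif1), Selenop (Ccdc152), Pltp (Ctsa) and Entpd2 (Npdc1). Called genes were spread over all autosomes and the X chromosome, at 2.58% to 5% of the genes tested on each, and the X chromosome had 19 risers and 1 faller of 400.

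Matrix and cell type markers were examined beside these groups. Of 37 matrix and crosslinking genes 5 rose, 0 fell and the median was 0.80: Lamc1, a laminin chain (9.66, 16.7 and 14.4 CPM in controls, 48.96, 49.7 and 52.2 in mutants), Nid1, nidogen, which joins laminin to collagen IV (6.204, 18.3 and 7.96 and 78.3, 76.4 and 43.2), the crosslinking enzymes Lox (2.44) and Loxl2 (1.82), and Col12a1 (1.69). Lamc1 was called with each library left out, whereas leaving out 1 library could reduce the list's count to 1. Of 19 markers of stellate cells and fibroblasts 2 rose, the proteoglycans Dcn (102, 127 and 112 CPM in controls, 207, 222 and 191 in mutants) and Lum (6.14, 6.44 and 7.43 and 24.1, 13.2 and 13.2), and the list summed to 494 to 647 CPM in controls and 742 to 940.4 in mutants. Col1a1, Col3a1 and Acta2 were not called (0.44, 1.09 and -0.34). No marker of that list was at 0 in all libraries, and the part of these cells in the matrix values was not tested.

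The 17 markers of recruited and lipid-associated macrophages had a median of 1.05, 14 of them positive, and summed to 235 to 344 CPM in controls and 407 to 601 in mutants. Only Mpeg1, a pore-forming protein of phagocytes, was called (79.8, 76.3 and 106 CPM in controls, 154, 278 and 153 in mutants, 1.16 ± 0.25). Mpeg1 and Spp1, the latter also made by other cells, were the main terms of that sum in mutants 1 and 3, and Spp1 was 64.6, 88.8 and 72.1 CPM in controls and 303, 23.8 and 141 in mutants. Atp6v0d2, a subunit of the proton pump known from osteoclasts and macrophages, had 2.74, 0.442 and 0.592 CPM in controls and 169.9, 107 and 23.8 in mutants (6.39 ± 0.99, adjusted p = 0.004999). The part of macrophages in its level was not tested. Of 13 Kupffer cell markers 0 were called, their sums overlapped (503 to 658 CPM in controls, 470.1 to 653 in mutants), and their median of -0.03 changes sign without a scaling factor. All 14 lymphocyte markers tested had positive values with 0 calls, at sums of 18.3 to 24.1 CPM in controls and 22.98 to 48.5 in mutants, mutant 2 being the highest, and the median fell from 0.57 to 0.15 without mutant 2. Neutrophil genes were near 0, with Ly6g at 0 counts in all 6 libraries. The pancreatic gene Amy2a5 and the adipose gene Lep also had 0 counts. Of 11 pancreatic and adipose genes listed, only Cela1 passed the filter, and it was not called. Its level was 18.6 to 27.5 CPM in controls and 12.5 to 21.6 in mutants. Cela2a, below the filter, had 3, 20 and 9 counts in controls and 5, 10 and 10 in mutants.

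The hepatocyte list itself had 0 calls of 16 and a median of -0.23, and without mutant 2 the median was -0.40 with 1 called lower. Alb was 85843, 74735 and 60218 CPM in controls and 51769, 79420.2 and 34429 in mutants, and Hnf4a, a regulator of hepatocyte identity, 558, 594 and 648 and 799, 909 and 711 (adjusted p = 0.512 and 0.211). Further lists with 0 calls were the urea cycle and amino acid catabolism (39 genes, median 0.04), liver transcription factors (32), the circadian clock (20), the interferon response (33, with 1 called higher and 1 lower without mutant 2), the unfolded protein response (21), fetal liver markers (12) and housekeeping genes (16, median 0.09). The fetal liver markers had a median of 0.51, with 11 of 12 positive. Their sum was 30.4 to 42.1 CPM in controls and 62.7 to 73.4 in mutants. Wnt and beta-catenin targets also had 0 of 18, at a median of -0.45. Their sum was 6907 and 5166 CPM in mutants 1 and 3 and 2343 CPM in mutant 2, against 8005 to 8447 in controls, and Cyp2e1, a gene of the zone around the central vein, was 6917, 6537 and 6311 CPM in controls and 5555, 1499 and 3921 in mutants. Of 37 cell cycle genes only the replication helicase subunit Mcm2 rose (2.29, 2.21 and 2.37 CPM in controls, 11.5, 12.2 and 8.28 in mutants, 2.22 ± 0.23). That is 2.70% of the list, against 2.90% of all genes tested. The proliferation marker Mki67 was not called and overlapped between groups (1.18, 1.23 and 1.29 and 2.35, 4.74 and 0.813 CPM).

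**Figure D4:**
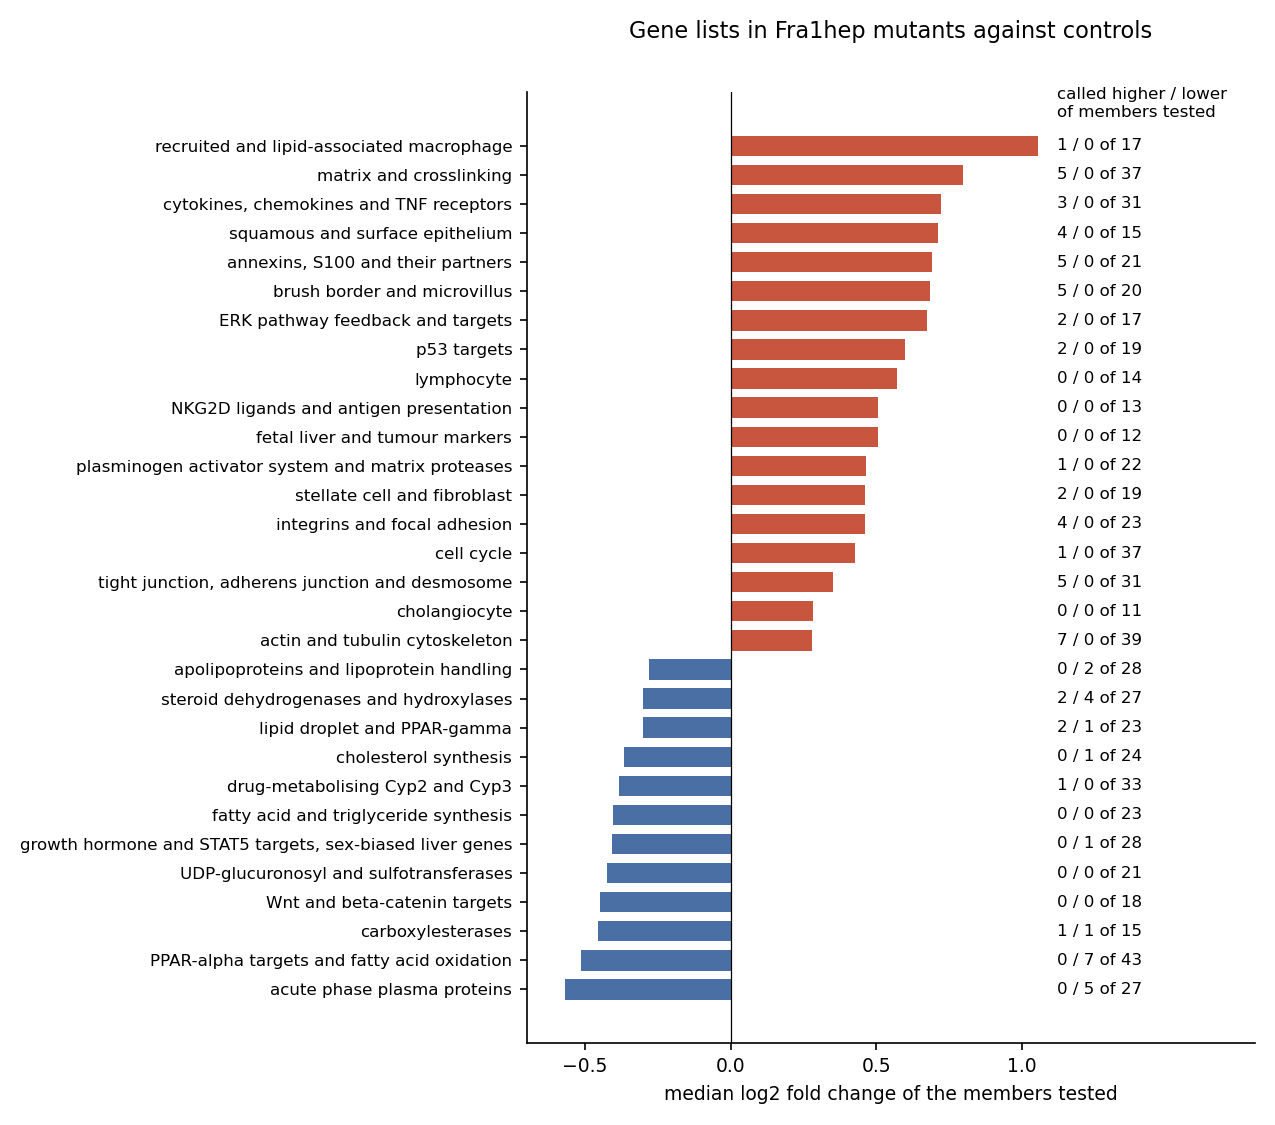
Median log2 fold change of the tested members of 30 gene lists in Fra1hep mutants against controls: the 18 highest and the 12 lowest medians among lists with at least 10 members tested. The numbers at the right count the members called higher and lower. By count, the cytoskeleton list has the most risers (7 of 39) and the list of PPAR-alpha targets and fatty acid oxidation the most fallers (7 of 43). By share of members tested, the squamous and surface epithelium list has the most risers (26.7%) and the acute phase list the most fallers (18.5%). Of all genes tested, 2.90% were called higher and 0.938% lower.

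The Fra2hep strain gave the closest comparison for the size of these effects. Of the 408 risers, 380 also had a positive log2 value in Fra2hep, at a median of 0.635 over the 408, and 309 were not called there. Of the 132 fallers, 122 had a negative value, at a median of -0.527 over the 132, and 117 were not called. These genes were chosen by their Fra1hep calls, so smaller values in Fra2hep are not separate from that choice. A test of the difference of the 2 effects, Fra1 minus Fra2, called 5 genes (0.0355% of those tested), 4 with a larger effect in Fra1hep and 1 with a smaller one, and 889 genes had an unadjusted p under 0.05. Fosl1 itself was not among the 5: its difference was 9.41 ± 1.39 (adjusted p = 0.0532 by edgeR). A gene outside the 5 is therefore not shown to respond alike in both strains. Smpdl3b, a membrane phosphodiesterase related to acid sphingomyelinase, had 0.131, 0.0983 and 0.161 CPM in Fra1hep controls and 49.8, 32.4 and 31.5 in Fra1hep mutants. In Fra2hep it had 1.38, 1.34 and 0.864 in controls and 11.6, 21.98 and 14.1 in mutants, so both the control and the mutant levels differed between strains without overlap (difference 4.40 ± 0.54, adjusted p = 0.0323). Gas7 rose by 2.71 ± 0.18 in Fra2hep, from 11.4, 16.3 and 9.66 to 76.9, 80.4 and 86.8 CPM (difference 1.98 ± 0.24, adjusted p = 0.0323). The control levels of Tpm1 overlapped between strains (33.4, 36.7 and 29.6 CPM in Fra2hep), and its Fra2hep mutants stood at 53.7, 62.6 and 61.7 CPM (difference 1.23 ± 0.17, adjusted p = 0.0394). Dop1b, a protein of endosome traffic, had 25.3, 28.1 and 25.6 CPM in Fra1hep controls and 76.2, 80.1 and 84.1 in Fra1hep mutants, against 42.7, 34.6 and 49.7 and 56.2, 53.7 and 47.7 in Fra2hep (difference 1.29 ± 0.18, adjusted p = 0.0431). Cyp4a12b, a fatty acid and arachidonate omega-hydroxylase of male liver with close copies, had 88.8, 129 and 131 CPM in Fra1hep controls and 74.3, 53.7 and 70.2 in mutants, a value of -0.81 ± 0.21 that was not called (adjusted p = 0.0643). In Fra2hep it rose, from 90.1, 70.9 and 106 to 248, 208 and 319 CPM (adjusted p = 0.00648), so the effects pointed in opposite directions (difference -2.35 ± 0.31, adjusted p = 0.0342). If the 9-month treatment field of the Fra2hep mutants is right, age and transgene cannot be told apart in their comparison. Under the replicate block 4 and 1 genes were called, of which 1 of the 4 and 0 of the 1 are those named here, and limma-voom called 2 of the 4. The count of 4 ranged from 0 to 12 and that of 1 from 0 to 2 when single libraries were left out: the 4 became 0 without Fra1hep control 1, 2 or 3, Fra1hep mutant 1 or 3, Fra2hep control 1, or Fra2hep mutant 1 or 3, 2 without Fra2hep control 2, 1 without Fra2hep mutant 2 and 12 without Fra2hep control 3. Between the control groups of the strains 0 genes were called by edgeR, with 753 at an unadjusted p under 0.05.

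**Figure D5:**
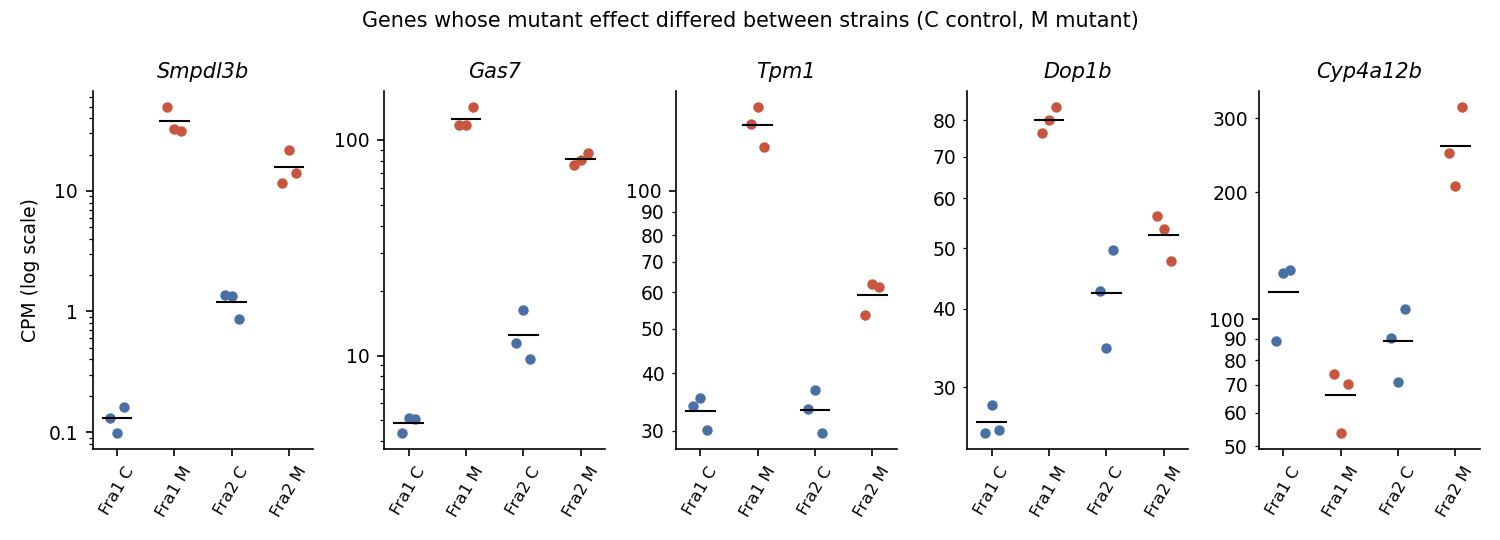
CPM on a log scale in all 12 libraries for the 5 genes whose effect differed between strains. Each point is 1 library and each bar a group mean, with controls (C) in blue and mutants (M) in red. For Smpdl3b, Gas7, Tpm1 and Dop1b the Fra1hep mutants are the highest group, and for Cyp4a12b the Fra2hep mutants are.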

How the data were processed

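Polyadenylated liver RNA of 12 mice was sequenced after a strand-marking library preparation, per the labels' protocols. The authors deposited raw counts per gene. STAR 2.6.1a, RSEM, bedtools 2.27.1, DESeq2 1.22.2 and the build GRCm38 (mm10) are named in the submitters' processing notes. The tool that made the count table, its strand setting and its annotation release are not stated there, and gene positions come from GENCODE M21, in which 54673 of 55421 identifiers matched with their version and 55240 without it. Libraries were grouped by title. Genes were filtered with filterByExpr, scaled by TMM and tested with edgeR 4.0.16 (R 4.3.3) with a robust quasi-likelihood fit of 4 group means over all 12 libraries, Benjamini-Hochberg adjusted over 14076 genes at 0.05. The procedure was tested on simulated data.

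Named genes were those with the 30 largest rises and 20 largest falls among called protein-coding genes reaching 1 CPM, the 15 largest CPM changes each way, the 10 smallest p-values, 5 of other types each way, up to 6 called members of each list and the genes of the strain difference. Others are marked as chosen after their values were seen, and a few genes are not reported here. The 60 gene lists, the members and the tests were chosen with earlier results of these data known. Replicate numbers did not pair the libraries. The alternatives were other scalings (RLE, none), DESeq2 1.42.0, limma-voom (limma 3.58.1), other filters, a test against a 1.5-fold change, the 6 Fra1hep libraries alone, a replicate block and leaving out each library. Intervals of ratios cover counting error only.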

Additional observations from a re-analysis of the deposited data

Results flagged for a closer look

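The 5 genes below were singled out because the effect of the transgene differed between the Fra1hep and Fra2hep strains by edgeR's test of the difference itself, as log2 Fra1 effect minus Fra2 effect. The value was 4.40 for Smpdl3b (Fra1 effect 8.12, Fra2 effect 3.73 ± 0.30, adjusted p = 0.0323), 1.98 for Gas7 (4.68 and 2.71 ± 0.18, adjusted p = 0.0323), 1.23 for Tpm1 (2.07 and 0.84 ± 0.12, adjusted p = 0.0394) and 1.29 for Dop1b (1.60 and 0.31 ± 0.13, adjusted p = 0.0431). For Cyp4a12b it was -2.35 (-0.81 and 1.54 ± 0.22, adjusted p = 0.0342), with opposite signs in the strains. In Fra1hep mutants and controls did not overlap for any of the 5. Controls of Smpdl3b, Gas7 and Dop1b were lower in each Fra1hep library than in each Fra2hep library, which enters the difference.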

How the results depend on the processing

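With 408 genes higher and 132 lower as the reported counts, no scaling factor gave 674 higher, DESeq2 gave 678 higher and 343 lower, and a test against a 1.5-fold change gave 172 higher and 25 lower. The share of higher genes among those called was 75.6%, and it was 86.9% with no scaling factor, 66.4% by DESeq2 and 87.3% against a 1.5-fold change. Leaving out 1 Fra1hep library at a time gave 215 to 334 higher and 52 to 110 lower, and leaving out 1 Fra2hep library gave 362 to 429 and 93 to 153. For the strain difference, with 4 higher and 1 lower, DESeq2 gave 47 and 22, no filter gave 8 higher, the test against a 1.5-fold change gave 0 and 0, and leaving out 1 library gave 0 to 12 and 0 to 2. The replicate block gave 288 higher (256 shared with the reported genes) and 83 lower (67 shared), and 42 named genes were not called under it. For the strain difference the block gave 4 and 1 genes that share 1 and 0 with those reported, and limma-voom gave 3 and 1 that share 2 and 1. The same-number correlations of -0.09, 0.06 and 0.07 did not pair the libraries, and not every library correlated best with its own number. For shifts not built into an alternative, the cause was not tested. Of 166 named genes called, 83 were called with every Fra1hep library left out and 64 under every alternative, and 0 changed sign. Not called were 19 by limma-voom, 39 with no filter, 87 against a 1.5-fold change, 36 with only the 6 Fra1hep libraries, and 39 to 72 with 1 Fra1hep library left out. Of 900 recomputed list medians, 84 moved by 1 SD or more and 45 took the other sign. With 3 mice a side and sparse control counts, sizes of the largest rises are imprecise.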
